A study of Mus musculus with 33 samples.

Results

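The MAP kinase phosphatases and the Sprouty proteins are the brakes that a cell builds when its growth factor and activity signals run through the ERK pathway. The genes described here are Dusp1, Dusp3, Dusp4, Dusp5, Dusp6, Dusp14, Spry2, Spry4, Spred1 and Spred2, chosen by symbol, 10 of the 21565 genes in the table. All 10 were found once, and all 10 passed the filter on low values (CPM no lower than 1 in every library of a compared group) in each comparison. The RNA came from the frontal cortex of adult male mice on a C57BL/6J background, in 33 libraries of 7 groups. Wild-type (WT) mice slept freely (CS, 6 libraries), were kept awake for 6 hr on a treadmill (SD, 7 libraries), or were kept awake for a shorter time and then allowed 2 hr of recovery sleep (RS, 7 libraries). Mef2cf/f mice, in which loxP sites flank an exon of Mef2c, gave 4 CS and 3 SD libraries. Mef2cCKO mice carry the same floxed alleles and a Camk2a-Cre transgene, which recombines them in excitatory neurons of the forebrain after birth, and gave 3 CS and 3 SD libraries. The Mef2cf/f mice are the controls without Cre, and no group carries Cre alone. The study's methods state that some Mef2cCKO mice had germline recombination of an allele. No label says that replicates are separate animals, so p-values measure the spread between these libraries.

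In textbook terms, receptor tyrosine kinases load Ras with GTP, and Ras passes the signal through Raf and MEK to ERK, which is active when phosphorylated on a threonine and a tyrosine. Dual-specificity phosphatases remove both phosphates. Sprouty proteins act upstream, between the receptor and Raf, and Spred proteins bring the Ras-inactivating protein neurofibromin to the membrane. Several of these inhibitors are themselves transcribed in response to ERK, CREB or SRF, so that in neurons they belong to the genes that follow electrical activity.

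Depth was 44395583 to 249046089 reads per library in WT and 18935045 to 94678945 in the others. Levels are given as rescaled CPM (read counts scaled to 1000000 per library, then divided by 1 factor per library). These factors were 0.7175 to 0.9127 in WT CS and 0.9796 to 1.0771 in WT SD, so the scaling bears on that comparison. The lowest member value rested on 70 reads (Dusp4 in a Mef2cf/f CS library). Mef2c itself, whose gene-level value still counts reads outside the floxed exon and therefore checks little, was at 1078.5 to 1204.8 in Mef2cf/f CS, 1133.5 to 1403.5 in Mef2cf/f SD, 955.5 to 1724.3 in Mef2cCKO CS and 1113.9 to 1497.7 in Mef2cCKO SD. Several libraries stood apart. The WT CS replicate 2 had the lowest factor, 0.7175. In Mef2cCKO CS replicate 8, astrocyte markers summed to 2485.6 and microglia markers to 444.0, against 843.5 to 899.2 and 174.1 to 206.4 in the other two of its group. In Mef2cCKO CS replicate 5, choroid plexus markers summed to 317.5, and WT CS replicate 1 held 190.6, against 3.73 to 65.4 elsewhere. Excitatory neuron markers were present throughout (1493.7 to 2317.0 summed), as the label of cortex requires.

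The 10 genes spanned a wide range of abundance. Per kb of the longest transcript, the mean level in WT CS was 48.8 for Spred1, 39.1 for Dusp3, 34.4 for Dusp14, 16.9 for Spred2, 16.7 for Dusp6, 10 for Spry2, 3.67 for Dusp1, 1.57 for Dusp5, 1.44 for Dusp4 and 1.11 for Spry4. The small atypical phosphatases Dusp3 and Dusp14 and the Spred1 gene were thus the most abundant brakes. Spred2, Dusp6 and Spry2 lay between, with Spred2 and Dusp6 nearly level. The inducible nuclear phosphatases Dusp1, Dusp4 and Dusp5 and the adaptor Spry4 were scarce. The same 4 genes were the scarce ones in the other 6 groups, but the order within the abundant and the scarce genes varied. Dusp3 was above Spred1 in all 6, by as little as 41.3 to 41.1 in WT RS. Dusp1 was the highest of the 4 scarce genes in 6 of the 7 groups and below Dusp4 in Mef2cCKO SD, and Dusp4 was above Dusp5 in WT SD (3.12 and 2.81) and WT RS (2.4 and 1.9).

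**Figure D1:**
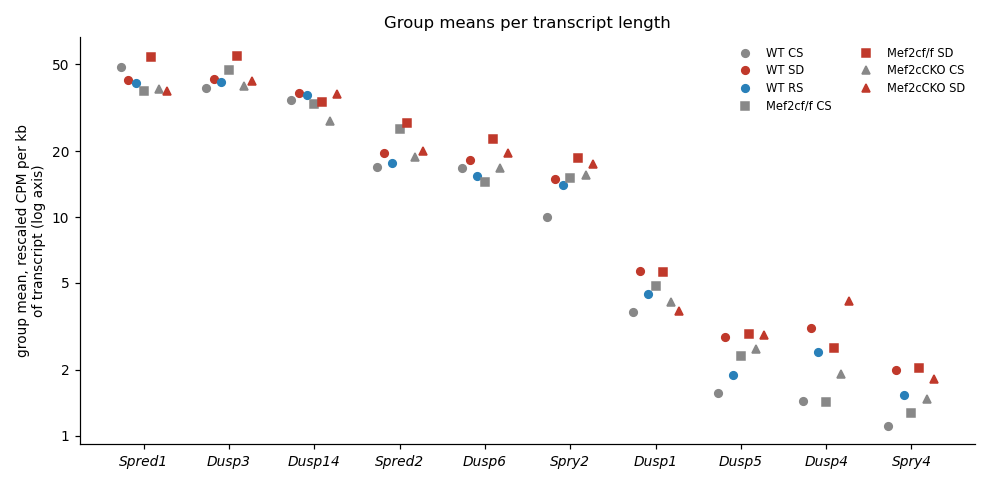
Group means of the 10 genes in rescaled CPM per kb of longest transcript (log axis), 1 symbol per group, ordered by the WT CS mean. Spred1, Dusp3 and Dusp14 lie at 27.5 to 54.7 in all 7 groups, and Dusp1, Dusp4, Dusp5 and Spry4 lie at 1.11 to 5.68.

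After 6 hr without sleep, 5 of the 10 genes rose in WT mice and none fell (limma with Benjamini-Hochberg adjustment over 12913 genes, adjusted p of at most 0.05 and absolute log2 fold change of at least 0.3). By the same rule 24.6% of all genes tested were higher and 45.1% changed in either direction, so the count of 5 of 10 was near the background for change, with all 5 upward. Of all genes that changed, 54.6% were higher, and 88.4% without rescaling. Over the 10 genes the median log2 fold change was 0.39, against 0.04 over all genes. The genes that rose were the scarce ones, Dusp1, Dusp4, Dusp5 and Spry4, together with Spry2. In 4 of them every SD library lay above every CS library, which 4.68% of all genes tested did in that direction.

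Dusp4, a nuclear phosphatase of ERK, had the largest change of the 10. Its level was 2.71, 3.76 and 5.26 (lowest, median and highest of 6) in CS and 7.05, 8.19 and 10.9 (of 7) in SD, without overlap. The log2 fold change was 1.04 (SE 0.15, adjusted p = 0.000483 by limma), a 2.05-fold rise. Dusp5, the phosphatase that binds ERK alone and holds it in the nucleus, was at 2.13, 4.35 and 4.66 in CS and 5.69, 6.88 and 8.2 in SD, again without overlap. Its log2 fold change was 0.80 (SE 0.16, adjusted p = 0.00225). Dusp1, an immediate early gene whose product acts on p38 and JNK as well as ERK, was at 5.53, 8.62 and 12.8 in CS and 10.3, 12.7 and 19.0 in SD. Here the groups overlapped through 1 CS library, replicate 1, the one with choroid plexus markers. The log2 fold change of Dusp1 was 0.62 (SE 0.18, adjusted p = 0.0127).

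Both Sprouty genes rose. Spry4 was at 2.91, 5.63 and 6.26 in CS and 7.52, 9.32 and 11.2 in SD, with a log2 fold change of 0.80 (SE 0.15, adjusted p = 0.00171). Spry2 was at 16.0, 21.1 and 24.6 in CS and 25.7, 31.2 and 40.4 in SD, with a log2 fold change of 0.56 (SE 0.12, adjusted p = 0.0032). In neither gene did a CS library reach the lowest SD library.

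The other 5 genes did not pass the test. Dusp6, the cytoplasmic phosphatase of ERK, was at 33.8 to 66.3 in CS and 45.6 to 67.9 in SD, a log2 difference of 0.17 (95% interval -0.18 to 0.52). The difference was 0.14 for Dusp3 (-0.06 to 0.35), 0.14 for Dusp14 (-0.18 to 0.46), 0.21 for Spred2 (-0.06 to 0.47) and -0.20 for Spred1 (-0.44 to 0.05). For all 5 the interval excludes a doubling.

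The size of these changes depended on how GC content was treated. The transcripts of Dusp5, Dusp4 and Dusp1 are rich in GC (56.7%, 56% and 54.0%, against a median of 49.0% over annotated genes), and that of Spred1 is poor (41.2%). With each library corrected for trends on GC content and transcript length, the log2 fold change was 0.65 for Dusp4 (adjusted p = 0.000973), 0.37 for Dusp5 (0.00986), 0.72 for Spry4 (0.00273) and 0.66 for Spry2 (0.00302), all by limma. Dusp1 then fell short, at 0.34 (adjusted p = 0.176), and did so after quantile normalization (0.43, 0.0701), where Dusp3 passed (0.32, adjusted p = 0.0308). On CPM as deposited, where the median of all genes was itself 0.30, Dusp3 (0.42, adjusted p = 0.0139) and Spred2 (0.48, adjusted p = 0.00656) also passed, and Spred1 turned to 0.08. All 5 genes still rose when WT CS replicates 1 and 2 were left out together, a choice made after seeing the data, with log2 fold changes of 0.46 (Spry2) to 0.87 (Dusp4).

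**Figure D2:**
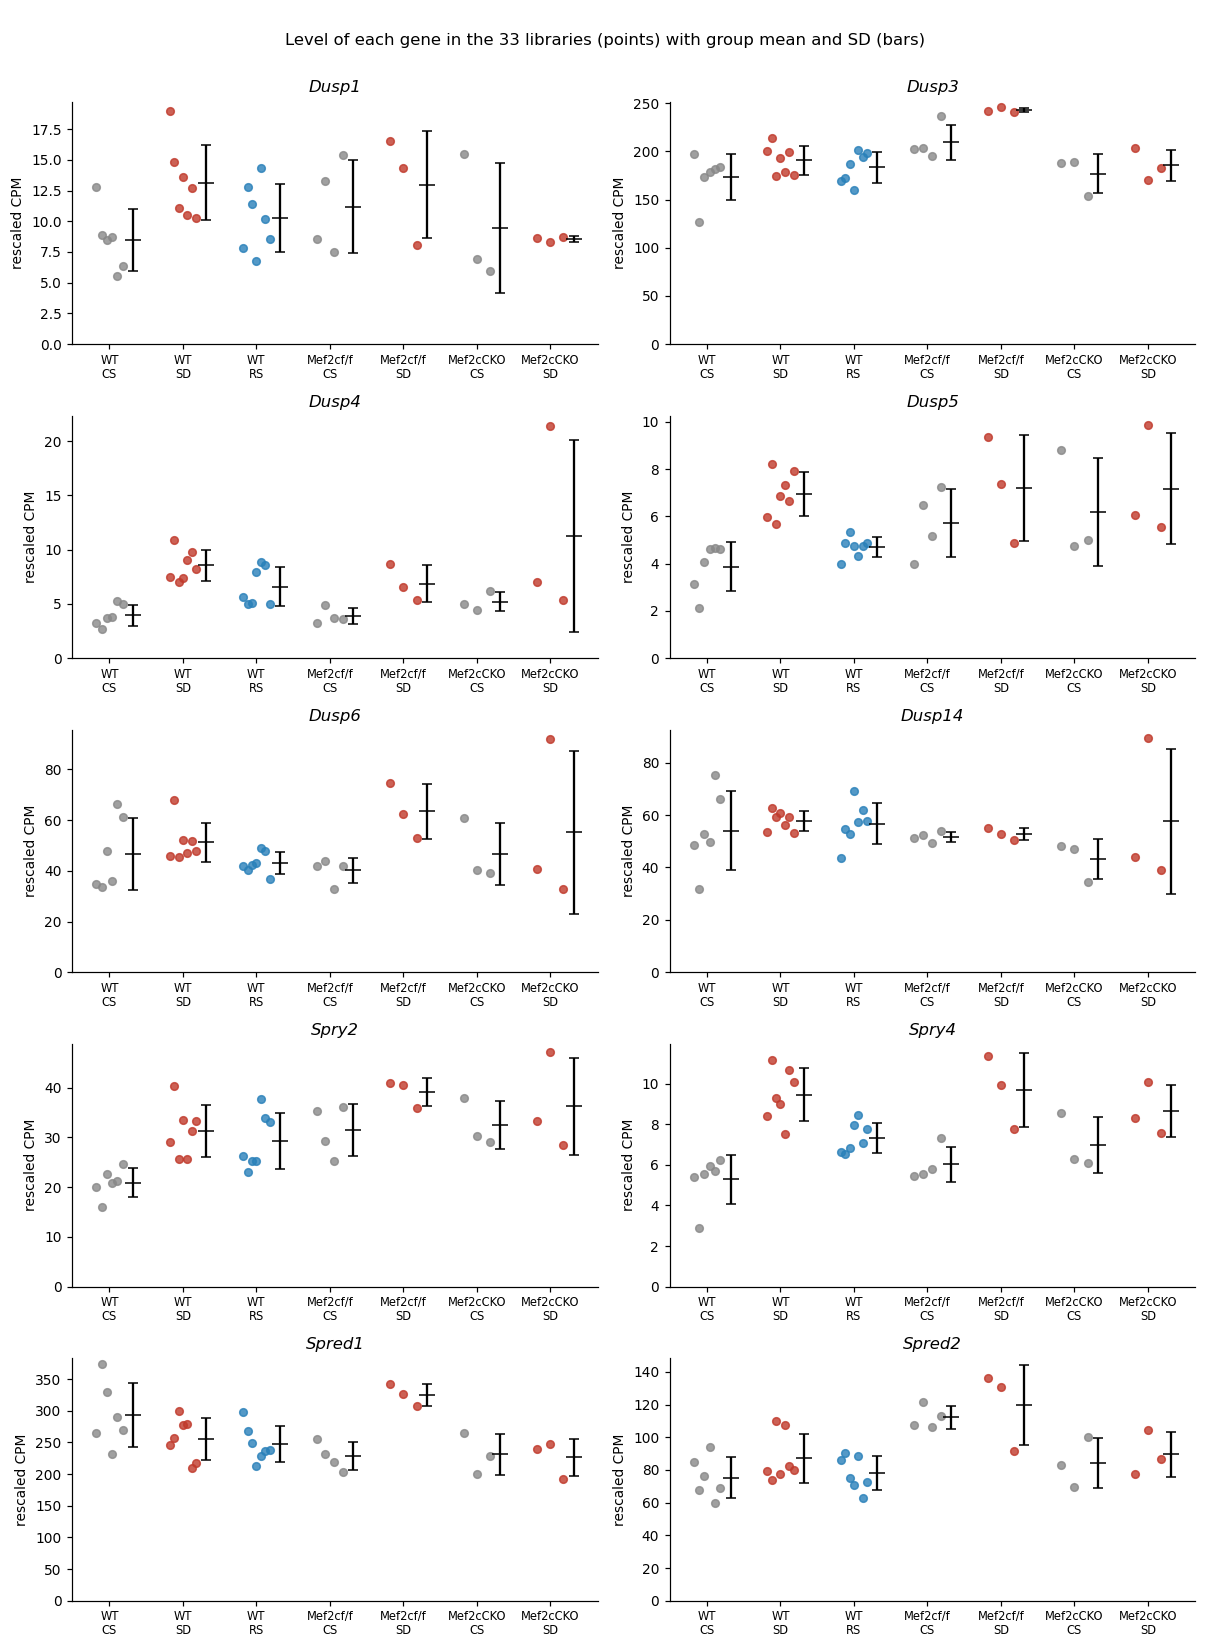
Rescaled CPM of the 10 genes in each of 33 libraries (points, linear axis from 0), with the group mean and SD beside them. In WT, the SD points of Dusp4, Dusp5, Spry2 and Spry4 lie above all CS points, and in Mef2cCKO SD 1 library carries the high values of Dusp4 (21.4), Dusp6 (92.1) and Dusp14 (89.5).

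The bases before the annotated starts of these genes are shown for 3 that rose, because activity-dependent transcription is known to act through short elements there. RefSeq (GRCm38.p6) gave a window of 250 bases before to 50 after the start for 8 of the 10 genes, not for Dusp4 or Spry4. Both strands were searched for the cyclic AMP response element (CRE, TGACGTCA), its core (TGACG), the AP-1 site (TGANTCA), a glucocorticoid receptor palindrome (ACANNNTGT), the TATA box (TATAAA), and by name the CArG box bound by SRF and the MEF2 site. A full CRE holds a core on each strand. Capitals mark the matches, and each sequence runs 5′ to 3′ on the gene's strand and ends at the base before the start. Dusp1 lies on the minus strand at chr17:26508473-26508722, Dusp5 on the plus strand at chr19:53528895-53529144, and Spry2 on the minus strand at chr14:105896820-105897069.
Dusp1: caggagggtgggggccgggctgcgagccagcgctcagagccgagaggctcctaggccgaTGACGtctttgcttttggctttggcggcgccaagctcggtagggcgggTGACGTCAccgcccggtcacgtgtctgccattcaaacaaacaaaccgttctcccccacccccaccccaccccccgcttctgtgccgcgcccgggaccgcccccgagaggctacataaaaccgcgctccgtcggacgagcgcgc
Dusp5: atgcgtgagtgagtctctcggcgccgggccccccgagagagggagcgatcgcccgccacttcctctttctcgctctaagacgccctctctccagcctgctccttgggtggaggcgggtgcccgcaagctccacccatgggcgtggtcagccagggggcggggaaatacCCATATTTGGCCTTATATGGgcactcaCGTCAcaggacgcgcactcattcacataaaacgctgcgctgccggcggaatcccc
Spry2: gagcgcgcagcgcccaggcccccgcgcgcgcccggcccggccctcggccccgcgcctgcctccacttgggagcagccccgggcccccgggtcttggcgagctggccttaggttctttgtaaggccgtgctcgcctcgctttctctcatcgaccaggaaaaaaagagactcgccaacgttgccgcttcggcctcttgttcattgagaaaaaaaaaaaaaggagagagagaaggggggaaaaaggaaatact
The Dusp1 stretch held a full CRE 143 bases before the start and a separate CRE core at 191 bases. Of 32851 RefSeq promoter windows, 1.79% have a full CRE and 20.8% a CRE core. These windows run from 250 bases before to 50 after the start, longer than the stretches shown. The Dusp5 stretch held a pair of adjacent CArG boxes, beginning 82 and 72 bases before the start (a CArG box is in 1.63% of windows), and a CRE core at 55 bases. The Spry2 stretch held none of the motifs searched. Among the genes that did not pass in WT SD, Dusp6 held the glucocorticoid palindrome at 102 bases and Spred2 at 161 bases (6.85% of windows), and Spred2 a CRE core at 51 bases. None of the 8 windows held the AP-1 site (7.81% of all windows), the MEF2 site (3.19%) or the TATA box (13.6%), which says only that these letters are absent from this window.

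**Figure D3:**
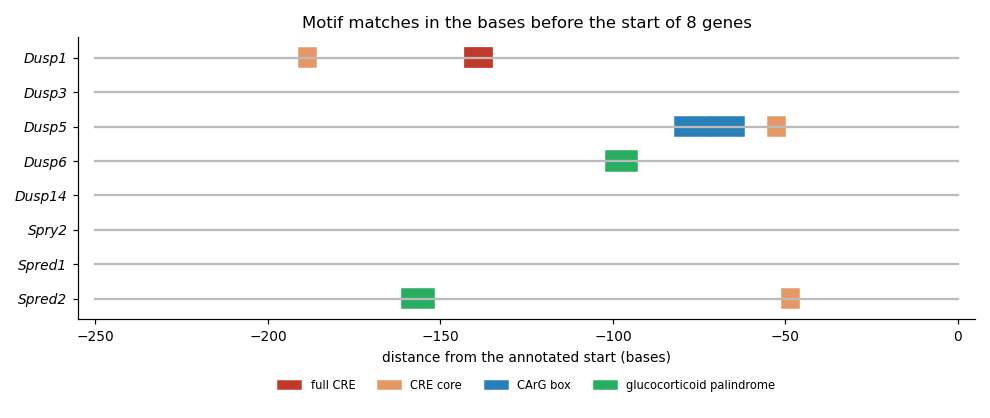
Motif matches in the 250 bases before the annotated start of 8 genes (x axis, distance from the start in bases, coloured boxes to scale). Dusp1 holds the only full CRE, at 143 bases, and Dusp5 the only CArG boxes, at 82 and 72 bases.

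After 2 hr of recovery sleep, 3 of the 10 genes were still higher than in CS and none was lower, where 9.28% of 12752 genes tested were higher and 17.5% changed in either direction. These were Dusp4 (log2 fold change 0.66, SE 0.18, adjusted p = 0.0362 by limma), Spry2 (0.46, SE 0.13, adjusted p = 0.0375) and Spry4 (0.46, SE 0.14, adjusted p = 0.0435). The RS levels were 4.96, 5.62 and 8.85 (lowest, median and highest of 7) for Dusp4, 23.1, 26.2 and 37.7 for Spry2 and 6.53, 7.1 and 8.48 for Spry4. Only Spry4 had all RS libraries above all CS libraries, as 1.7% of all genes did, while the other two overlapped with CS. Dusp5 was at 4.0, 4.76 and 5.33 in RS, a log2 difference from CS of 0.28 (adjusted p = 0.147), and Dusp1 at 6.75, 10.2 and 14.3, a difference of 0.26 (adjusted p = 0.288). These calls were fragile. None of the 3 genes passed without WT CS replicate 1, 2 or 3, without WT RS replicate 3, 4, 5, 6 or 12, or without a filter on low values, where the adjusted p was 0.0516 to 0.0903. Only Spry2 passed after quantile normalization or the GC correction.

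Against SD directly, with RS and SD each also compared with the same CS libraries, all 10 genes had lower fitted means in RS and none passed the test. In this comparison 0.0232% of 12921 genes passed (limma), and an unadjusted p of 0.05 or less was seen in 5 of the 10 genes and in 5.29% of all genes. DESeq2 called 1 of the 10 and edgeR none. The gene that DESeq2 called was Dusp5, whose RS libraries (4.0 to 5.33) all lay below its SD libraries (5.69 to 8.2), a separation that 0.108% of all genes showed in this direction. Its log2 difference was -0.51 (SE 0.09, adjusted p = 0.0669 by limma, 0.000128 by DESeq2), and without WT SD replicate 3 it passed (-0.56, adjusted p = 0.0403). The difference was -0.34 for Spry4 (95% interval -0.54 to -0.14), -0.38 for Dusp4 (-0.69 to -0.07), -0.36 for Dusp1 (-0.71 to -0.01), and -0.24 for Dusp6 (-0.43 to -0.05). Spry2 differed little, at -0.10 (-0.36 to 0.16).

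**Figure D4:**
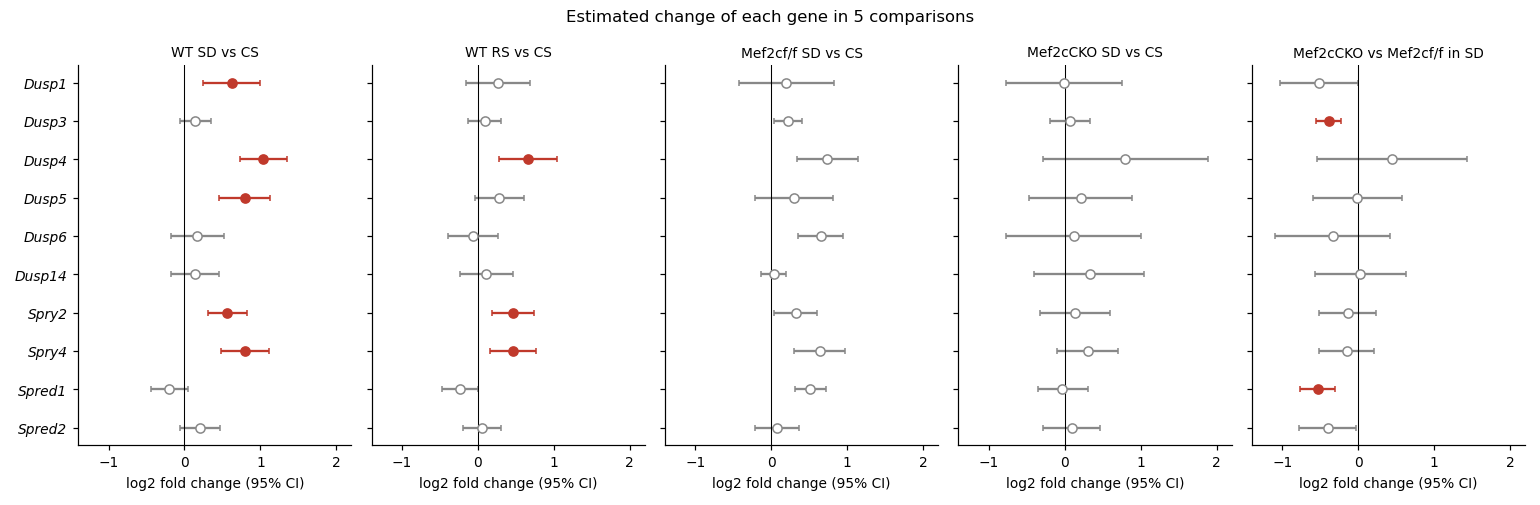
Log2 fold change (points) with 95% confidence interval (bars) of the 10 genes in 5 comparisons, filled red where the gene passed the test. Dusp4 is the farthest right of the 10 in WT SD vs CS at 1.04, and Spred1 lies at -0.20 there, at 0.51 in Mef2cf/f mice and at -0.03 in Mef2cCKO mice.

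In Mef2cf/f mice, sleep deprivation gave higher fitted means for all 10 genes (median log2 fold change 0.31, against -0.00 over all genes), but none passed the test, as only 0.0403% of 12410 genes did. An unadjusted p of at most 0.05 was reached by 6 of the 10 and by 17.0% of all genes, edgeR called none of the 10, and DESeq2 called 4. In 5 of the 10, Dusp3, Dusp4, Dusp6, Spry4 and Spred1, all 3 SD libraries lay above all 4 CS libraries, as did 8.53% of all genes. Markers of other cells were apart between these groups too, although no marker gene passed the test. Oligodendrocyte markers summed to 1851.4 to 2217.4 in CS and 2451.3 to 2822.5 in SD, astrocyte markers to 674.4 to 727.8 and 734.4 to 788.6, and meningeal fibroblast markers to 50.5 to 57.9 and 58.2 to 91.0. Red blood cell markers were lower in SD (56.3 to 105.1 against 123.0 to 182.3). Their part in the values of the 5 genes was not tested.

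The gene with the smallest p was Spred1, whose difference in WT mice was -0.20. It was at 256.2, 232.2, 219.9 and 203.9 in the 4 Mef2cf/f CS libraries and at 342.2, 326.1 and 306.8 in the SD libraries, a log2 difference of 0.51 (SE 0.09, adjusted p = 0.0765 by limma, 9.78e-05 by DESeq2). Dusp6 was at 41.8, 43.9, 33 and 42.0 in CS and at 74.7, 62.5 and 53.1 in SD, a difference of 0.65 (SE 0.13, adjusted p = 0.0956 by limma, 0.000767 by DESeq2). In both genes every SD library lay above the CS libraries, and both passed in limma after the GC correction (adjusted p = 0.037 and 0.0386) and without Mef2cf/f CS replicate 1 (0.026 and 0.0409). Dusp4 was at 3.29, 4.92, 3.73 and 3.58 in CS and 8.7, 6.56 and 5.37 in SD (difference 0.74, SE 0.18, adjusted p = 0.119 by limma, 0.00766 by DESeq2). Spry4 was at 5.46, 5.57, 5.78 and 7.31 in CS and 11.4, 9.95 and 7.76 in SD (0.64, SE 0.15, adjusted p = 0.115 by limma, 0.0047 by DESeq2). Spry4 too passed in limma after the GC correction (0.70, adjusted p = 0.0479). Dusp1, Dusp5 and Spry2, which had risen in WT mice, overlapped between the groups here. Their differences were 0.20 (95% interval -0.42 to 0.83), 0.30 (-0.22 to 0.81) and 0.32 (0.04 to 0.60, adjusted p = 0.243 by limma). The highest CS library of Spry2 was at 36.2 and its lowest SD library at 35.9.

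In Mef2cCKO mice no member passed for SD against CS, under any of the alternatives or with any library left out, and none reached an unadjusted p of 0.05. The share over all 12810 genes was 0.0234% by the call (limma) and 3.05% by the unadjusted p, and neither edgeR nor DESeq2 called any of the 10. The largest difference was that of Dusp4, 0.80 (95% interval -0.29 to 1.89), and it came from 1 library. Dusp4 was at 5.03, 4.45 and 6.19 in CS and at 7.07, 21.4 and 5.33 in SD, where the middle value is replicate 6. Dusp6 in the same order was at 60.8, 40.4 and 39.0 in CS and at 40.7, 92.1 and 32.8 in SD. Dusp14 was at 48.1, 46.9 and 34.5 in CS and at 44.0, 89.5 and 39.2 in SD. Replicate 6 of Mef2cCKO SD thus held the highest Dusp4, Dusp6 and Dusp14 of all 33 libraries, and the highest Dusp5 (9.87) and Spry2 (47.2). Dusp1 took no part in this, at 8.31 in replicate 6 and 8.6 and 8.73 in the other two.

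Of 12 genes known to respond to neuronal activity or ERK, 9 were highest in replicate 6 among the Mef2cCKO SD libraries and 8 among all 6 Mef2cCKO libraries. These 12 were picked from several lists and leave out other ERK-responsive genes. The share of all genes highest in replicate 6 was not counted. Fosb was at 22.2 there and at 4.04 and 3.37 in the other two Mef2cCKO SD libraries, Egr2 at 18.9 against 2.42 and 1.05, and Junb at 44.9 against 13.0 and 10.9. Bdnf (150.7 against 35.3 and 27.1) and Fos (45.0 against 8.27 and 4.97) followed, named after their values were seen. The exceptions among the SD libraries were Etv5, lowest in replicate 6 (102.9 against 125.6 and 115.6), Etv4 (4.38 against 4.44 and 3.44) and Dusp2 (0.429 against 0.459 and 0.384), and Ier2 was higher in Mef2cCKO CS replicate 5 (2.76) than in replicate 6 (2.51). Without this library the difference between Mef2cCKO SD and CS was 0.23 for Dusp4, -0.32 for Dusp6, -0.04 for Dusp14, -0.06 for Spry2 and -0.03 for Dusp5. Among the CS libraries, replicate 5, with choroid plexus markers, held the highest Dusp1 (15.5 against 6.9 and 5.92), Dusp5 (8.8 against 4.74 and 4.99) and Dusp6 of its group. It also held the highest Dusp14, Spry2, Spry4 and Spred1. Of the activity genes, Egr1 (81.1 against 36.6 and 27.3), Egr2 (3.59 against 0.448 and 0.516) and Fos (11.1 against 4.48 and 5.92) were highest there, with Egr4, Ier2, Etv5 and Etv4. Fosb, Junb, Bdnf, Hbegf and Dusp2 were highest in CS replicate 8. The part of these other transcripts in the values was not tested.

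**Figure D5:**
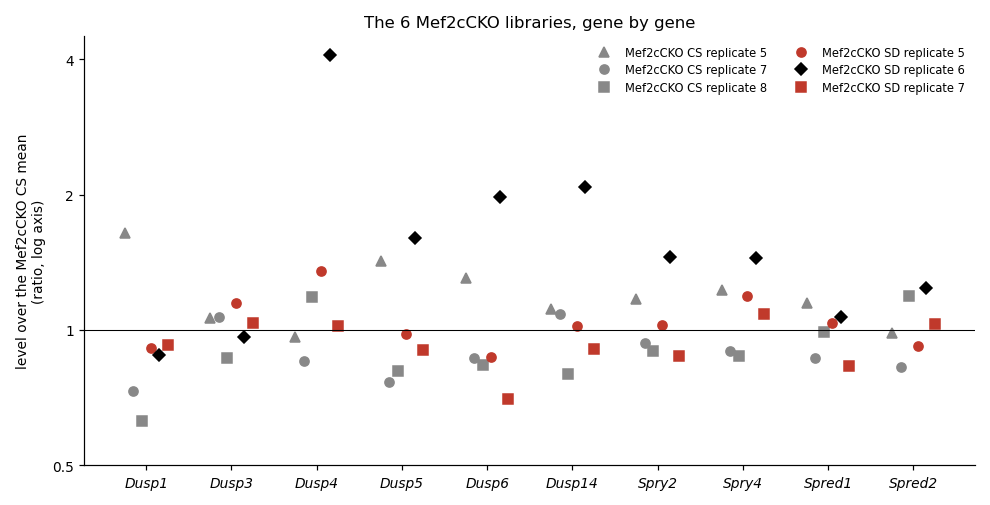
Level of the 10 genes in each of the 6 Mef2cCKO libraries over the mean of the 3 Mef2cCKO CS libraries (ratio, log axis). SD replicate 6 (black) lies highest for Dusp4, Dusp5, Dusp6, Dusp14, Spry2, Spry4 and Spred2, and CS replicate 5 (grey triangles) for Dusp1 and Spred1.

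Between the genotypes, 2 genes were lower in Mef2cCKO than in Mef2cf/f mice after SD, where 5.99% of 12774 genes were lower, 9.1% were higher and 15.1% changed in either direction. Of all genes that changed here, 60.3% were higher, with 77.5% on unscaled CPM, 48.9% after quantile normalization and 43.0% after the GC correction, while the same number of members, 2 lower and none higher, passed under each. Spred1 was at 342.2, 326.1 and 306.8 in Mef2cf/f SD and at 239.6, 247.1 and 192.2 in Mef2cCKO SD (log2 fold change -0.53, SE 0.10, adjusted p = 0.0118 by limma). Dusp3 was at 242.3, 245.9 and 241.4 and at 203.3, 170.8 and 182.6 (-0.39, SE 0.07, adjusted p = 0.0113). Neither gene overlapped between the genotypes, as was true of 18.7% of all genes in this direction. Both calls were lost without Mef2cf/f SD replicate 1 (adjusted p = 0.0608 and 0.0555). Spred2 was at 136.6, 130.8 and 91.4 in Mef2cf/f SD and 77.4, 104.3 and 86.8 in Mef2cCKO SD. Its difference of -0.40 (95% interval -0.78 to -0.03) did not pass in limma. Nor did that of Dusp1, -0.52 (adjusted p = 0.144 by limma). DESeq2 called both Spred2 (-0.43, adjusted p = 0.032) and Dusp1 (-0.61, adjusted p = 0.0345). Without Mef2cf/f SD replicate 3 both passed in limma, Spred2 at -0.59 (adjusted p = 0.039) and Dusp1 at -0.81 (adjusted p = 0.01).

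The number of members lower after SD depended on Mef2cf/f SD replicates 1 and 3, as given above, and on Mef2cCKO SD replicate 6. Replicate 6 was singled out after its high Dusp4, Dusp5, Dusp6, Dusp14 and Spry2 were seen. That such genes were lower without it was given in advance, so nothing is concluded from the count. Without it, 6 of the 10 genes were lower in Mef2cCKO SD, where 6.8% of 12862 genes were, with Dusp6 (-0.77, adjusted p = 0.00258), Dusp14 (-0.34, 0.0103), Spry2 (-0.34, 0.0236) and Spred2 (-0.52, 0.0256) added to Spred1 (-0.60) and Dusp3 (-0.34), by limma with 2 Mef2cCKO libraries. With it, these differences were -0.33 for Dusp6, 0.03 for Dusp14 and -0.14 for Spry2. In CS no member passed between the genotypes, where 7.67% of 12681 genes did (limma). There 3 of the 10 and 28% of all genes had an unadjusted p of at most 0.05, edgeR called none and DESeq2 1. This was Spred2, at 107.5, 121.9, 106.5 and 113.2 in Mef2cf/f and 83.0, 69.5 and 100.2 in Mef2cCKO, all lower, as were 13.5% of all genes (-0.43, SE 0.12, adjusted p = 0.0644 by limma, 0.0133 by DESeq2). Without Mef2cCKO CS replicate 8, the library rich in astrocyte and microglia markers, it passed in limma (-0.56, adjusted p = 0.0294). In the tissue as a whole, fewer cells of a type cannot be told apart from less RNA per cell. Of 8 excitatory neuron markers, 4 were lower in Mef2cCKO SD than in Mef2cf/f SD and none higher (1738.9 to 1972.0 against 2174.9 to 2317.0 summed). Higher were 4 of 7 microglia markers (197.9 to 217.2 against 156.3 to 166.7 summed) and 2 of 7 astrocyte markers (919.5 to 1109.8 against 734.4 to 788.6). Inhibitory neuron markers gave 3 higher and 2 lower of 7, with a higher sum (711.2 to 829.0 against 539.2 to 615.3). Of choroid plexus markers 2 of 3 were higher, of meningeal fibroblast markers 1 of 7 and of endothelial markers 1 of 6. Of oligodendrocyte markers 1 of 7 was lower. Their part in the values of Spred1 and Dusp3 was not tested.

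The difference between 2 responses was tested directly with interactions. The response to SD was not shown to differ between Mef2cCKO and Mef2cf/f for any of the 10 genes (limma, 0.00778% of 12860 genes called), of which 1 had an unadjusted p of at most 0.05, as did 7.81% of all genes, and none was called by edgeR or DESeq2. That gene was Spred1, with a difference of -0.54 (95% interval -0.90 to -0.18, adjusted p = 0.534). Between Mef2cf/f and WT mice 1 of the 10 differed, again Spred1 (0.71, SE 0.18, adjusted p = 0.0233), where 15.1% of 13106 genes did. In WT mice Spred1 was at 232.5, 279.9 and 374.0 (lowest, median and highest) in CS and at 209.2, 257.6 and 299.2 in SD. The WT and Mef2cf/f libraries differ together in genotype, in depth and in the CPM sum over the listed genes, and these cannot be told apart. Rescaling factors were apart between CS and SD in WT (0.7175 to 0.9127 and 0.9796 to 1.0771). They overlapped in Mef2cf/f mice (0.9855 to 1.0676 and 1.0276 to 1.056), so the scaling bears on this interaction. After the GC correction the Spred1 difference was 0.24 (adjusted p = 0.271), and without any of Mef2cf/f CS replicates 2 or 4 or SD replicates 1 or 3 it was 0.66 to 0.75 (adjusted p = 0.0505 to 0.0821).

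Around the 10 genes, the rest of the pathway moved both ways in WT SD. Of 104 other pathway genes tested, 30 were higher and 25 lower, with a median log2 fold change of 0.03. Over all genes tested 24.6% were higher and 45.1% changed in either direction, so these counts were near the background. The counts of the single lists below stand beside the same shares. Among receptors and adaptors, 5 of 21 rose and 6 fell. Fgfr1, a receptor for fibroblast growth factors, rose by 0.84 (SE 0.11, adjusted p = 0.000399 by limma), and the neuregulin receptor Erbb4 fell by 0.78 (-0.78, SE 0.15, adjusted p = 0.00178). Of the 12 ligands 2 rose and 3 fell, with Nrg1, the ligand of Erbb4, at -0.96 (SE 0.14, adjusted p = 0.000615) and Hbegf at 0.35 (SE 0.10, adjusted p = 0.0136). In the Ras, Raf, MEK and ERK cascade 4 of 14 rose, Hras (0.49) and Map2k2 (0.80) among them, and 3 fell, Braf (-0.52) among them. Of the JNK and p38 cascade, on which Dusp1 acts, 2 of 9 rose and 4 fell, with the JNK genes Mapk10 (-0.57), Mapk8 (-0.55) and Mapk9 (-0.40) lower and Map2k3 (0.65) higher.

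The closest relatives of the members did not move as a group. Of 6 other MAP kinase phosphatases tested, Ptpn5 (0.49) and Dusp8 (0.54), a phosphatase of JNK and p38, rose, and Ptprr (-0.78), a receptor-type phosphatase of ERK, and Dusp16 (-0.30) fell. Of 7 other atypical phosphatases only Dusp28 (0.75) passed, and of Spry1 and Spred3 only Spred3 (0.35). Other inhibitors of the pathway gave 4 higher and 3 lower of 10, with Erf, a repressor that ERK exports from the nucleus, at 1.01 and the ubiquitin ligase Cblb and the Ras inactivator Rasa1 at -0.54 and -0.57. Of 10 kinases and transcription factors downstream of ERK, 3 were higher, with Mknk2 (0.86) and Srf (0.48) among them, and 3 lower, with Rps6ka3 (-0.78) among them.

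Among the pathway lists, the genes known to answer ERK had the highest median change in WT SD, where 24.6% of all genes tested were higher. Their likeness to the 5 members that rose was not measured. Of 13 tested in WT SD, 6 were higher and 1 lower, with a median of 0.49, and the largest changes were those of Junb (2.12, SE 0.56, adjusted p = 0.00849 by limma), Egr4 (1.46, SE 0.38, adjusted p = 0.00791), Fosb (1.06, SE 0.18, adjusted p = 0.000956) and Ier3 (0.72, SE 0.20, adjusted p = 0.0108). Of these 4, Fosb alone had SD libraries (3.83 to 6.15) all above its CS libraries (1.15 to 3.49). The gene that was lower was Etv1 (-0.65), and among those that did not pass were Egr1 (0.00), Egr2 (0.03) and Fos (0.49). In Mef2cf/f SD, 12 of 12 tested had a log2 fold change above 0 (median 0.64), and Egr1 and Egr2 differed between the Mef2cf/f and WT responses (0.86 and 1.75, adjusted p = 0.0383 and 0.0244). By the call, 0 of 105 other pathway genes passed in Mef2cf/f SD (limma), 32 had an unadjusted p of at most 0.05, edgeR called 1 and DESeq2 9. In Mef2cCKO SD 0 of 107 passed (limma), 3 had an unadjusted p of at most 0.05, and neither edgeR nor DESeq2 called any. In WT RS against CS, 9 of 105 were higher and 8 lower, where 9.28% of all genes were higher and 17.5% changed in either direction.

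Transcripts of other cells moved with sleep loss in WT mice. All 5 red blood cell genes rose (97.8 to 285.0 summed in SD against 28.2 to 118.0 in CS), as did 4 of 6 meningeal fibroblast genes (49.8 to 79.8 against 9.43 to 42.5) and 4 of 6 oligodendrocyte precursor genes, whose sum was nevertheless lower (435.0 to 592.5 against 606.8 to 735.9). Of astrocyte genes, 3 of 7 were higher, but their sums overlapped (734.0 to 975.9 in SD, 622.6 to 1177.6 in CS). Of microglia genes 1 was higher and 1 lower of 7, and of excitatory neuron genes 2 of 8 were lower. Inhibitory neuron genes gave 2 higher of 7, and oligodendrocyte genes 1 higher and 2 lower of 7. Pericyte and smooth muscle genes gave 2 higher and 1 lower of 6, endothelial genes 1 and 1 of 6, and choroid plexus genes 1 lower of 3. Over all genes tested 24.6% were higher and 45.1% changed in either direction. The part of these transcripts in the rise of the 5 members was not tested.

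Over the 7 group means, the members with the widest range were Dusp4 (1.19 on the log2 scale), Spry2 (0.90) and Spry4 (0.83). Among 11560 genes whose CPM reached 1 in all libraries, the centred group means nearest to those of Dusp4 belonged to Arl4d (root mean square difference 0.14), Cdkn1a (0.14) and Efnb1 (0.17). Those nearest to Spry2 were Hif1an (0.04), Thrsp (0.05) and Slc36a1 (0.05), and those nearest to Spry4 were Dnajb5 (0.08), Midn (0.08) and Ccnd3 (0.09). The highest group mean was WT SD or Mef2cf/f SD for 9 of the 10 genes, and for Dusp4 it was Mef2cCKO SD, through replicate 6. The share of all genes with such an order was not counted. For Dusp3 and Spred2 the second highest mean was that of Mef2cf/f CS, a group that slept freely. Most neighbours in these orders were not separable. Mean and SD intervals of adjacent groups were apart in 1 of 6 pairs for Dusp3 (Mef2cf/f SD above Mef2cf/f CS) and for Spred2 (Mef2cf/f CS above Mef2cCKO SD), and in no pair for the other 8 genes.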

How the data were processed

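Frontal cortex RNA from 33 samples was made into stranded polyadenylated libraries. The authors trimmed the reads (FASTQC, Trimmomatic), aligned them with STAR to mm10, counted unique reads per gene with HTSeq and deposited the values as CPM made with edgeR. WT libraries sum to 925580 to 985958 CPM over the listed genes and the others to 1000000. Whole reads were recovered for 100% of 711645 values (within 0.01 of a whole number), and these gave the depth.

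To rescale, each library's CPM was divided by its median-of-ratios factor (11570 genes). Comparisons were fitted on log2(rescaled CPM + 0.5) with limma 3.58.1 in R 4.3.3 (trend, compared groups only), so fold changes of low genes are understated. Genes needed CPM of at least 1 in all libraries of a compared group. A call needed an adjusted p of at most 0.05 over all genes tested and a log2 change of 0.3 or more in size, and for interactions the adjusted p alone. Alternatives were pseudocounts of 0.1 and 1, no filter, CPM as deposited, quantile normalization, edgeR 4.0.16 (quasi-likelihood) and DESeq2 1.42.0 on recovered reads, a correction for GC content and length (splines with 5 and 4 degrees of freedom), a replicate block, and leaving out each library in turn. GC content and length came from GENCODE M21 (19498 genes, 90.4%, matched), and 8 of 10 promoter windows from RefSeq. Whether the counting used strand is not given in the sources used here, so reads of a gene and an antisense partner may not be told apart.

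The 10 genes, the lists and the tests were chosen with earlier results of these data known. Named from the lists were, per list, at most 4 called genes with the largest change in WT SD, and genes called in WT RS against SD or an interaction. Also named were ERK-responsive genes that did not rise in WT SD, and activity genes compared across the Mef2cCKO libraries. Nearest patterns were searched for the 3 members of widest range. Spry3 was not analysed here, and 1 gene that the rule names is not reported here.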

Additional observations from a re-analysis of the deposited data

Results flagged for a closer look

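Of 40 sets of libraries checked (10 genes in the 4 groups with 4 or more libraries), 4 held a library far from the rest of its group, where chance gives about 1 in 20. In WT CS replicate 2, the library with the lowest rescaling factor, Dusp3 was at 127.2, with the other 5 at 173.7 to 197.0, and Spry4 was at 2.91, with the other 5 at 5.43 to 6.26. In WT SD replicate 2, Dusp6 was at 67.9, with the other 6 at 45.6 to 52.3. In Mef2cf/f CS replicate 4, Spry4 was at 7.31, with the other 3 at 5.46 to 5.78. Without WT CS replicate 2 the WT SD fold change was 0.06 (log2) for Dusp3 and 0.66 (adjusted p = 0.000491 by limma) for Spry4. The groups of 3, Mef2cCKO SD with its replicate 6 included, are too small for this check.

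The response of Spred1 to sleep deprivation differed between Mef2cf/f and WT mice by 0.71 on the log2 scale (SE 0.18, adjusted p = 0.0233 by limma). All 3 Mef2cf/f SD libraries lay above the 4 CS libraries, and in WT mice the groups overlapped. Of all genes tested 15.1% were called in this interaction. The Spred1 call was lost after the GC correction (0.24, adjusted p = 0.271 by limma) and after quantile normalization (0.45, 0.0587). It was also lost with the replicate block, and without any of Mef2cf/f CS replicates 2 or 4 or SD replicates 1 or 3.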

How the results depend on the processing

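The 5 calls in WT SD against CS held with any library left out and with pseudocounts of 0.1 or 1, no filter, edgeR, DESeq2 or WT CS replicates 1 and 2 left out, and 4 held after quantile normalization or the GC and length correction and 2 with the replicate block. Of 810 fold changes refitted under the other settings, 737 kept their direction and side of the threshold, and so did 898 of 990 with 1 library left out. The number of members called was 0 with no filter, 1 after quantile normalization, 1 after the GC correction and 0 without WT CS replicates 1 and 2 in WT RS against CS. It was 1 by DESeq2 in WT RS against SD, 4 by DESeq2 and 3 after the GC correction in Mef2cf/f SD, 1 by DESeq2 and 1 after the GC correction between genotypes in CS, and 4 by DESeq2 between genotypes in SD. In the Mef2cf/f minus WT interaction it was 0 after quantile normalization and 0 after the GC correction. With 1 library left out the number went from 0 to 3 in WT RS against CS, 0 to 1 in WT RS against SD, 0 to 2 in Mef2cf/f SD, 0 to 1 between genotypes in CS, 0 to 6 between genotypes in SD and 0 to 1 in that interaction. The fold change of Dusp14 between genotypes in SD went from -0.34 to 0.25 over left-out libraries. The cause of these changes was not tested.

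Calls over all genes moved as well. In WT SD 2550 genes passed after the GC correction and 3717 without WT CS replicates 1 and 2, against 5825. In WT RS against CS it was 385 with no filter, 3420 by DESeq2, 635 after the GC correction and 0 without those replicates (limma), against 2232. In WT RS against SD it was 0 with no filter, 1 on CPM as deposited, 54 by DESeq2 and 7 after the GC correction, against 3. In Mef2cf/f SD it was 466 by DESeq2, 122 after the GC correction, 13 with a pseudocount of 1, 9 by edgeR and 0 with no filter, against 5. In Mef2cCKO SD it was 25 by DESeq2 and 6 with no filter, against 3. Between genotypes in CS it was 2095 by DESeq2 and 1488 after the GC correction, against 973. In the interactions it was 59 by DESeq2 and 5 after the GC correction against 1, and 1142 with no filter, 3426 on CPM as deposited and 281 after the GC correction against 1983. In WT RS against CS, 53.0% of called genes were higher, 88.2% on CPM as deposited and 30.4% after the GC correction. Between genotypes in CS it was 41.3%, 71.8% and 29.6%, and in the Mef2cf/f minus WT interaction 61.8%, 14.8% and 71.5%.

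Replicate numbers were not taken to pair the samples. Deviations of same-numbered libraries from their group means correlated above 0.1 in 3 of 5 pairs for WT SD and CS, 4 of 6 for RS and CS, 2 of 5 for RS and SD, 2 of 3 in Mef2cf/f and 1 of 2 in Mef2cCKO, and 2 of 10, 4 of 12, 1 of 10, 2 of 6 and 4 of 4 libraries correlated best with their own number, in the same order. With the replicate block, 2 members passed in WT SD (Dusp5 at 0.83, adjusted p = 0.0521, Spry2 at 0.55, 0.067, and Spry4 at 0.78, 0.054, did not, by limma), 1 in Mef2cf/f SD and 0 in the Mef2cf/f minus WT interaction, and all genes called were 287 in WT SD, 4279 in WT RS against CS, 0 in RS against SD, 13 in Mef2cf/f SD, 1 in Mef2cCKO SD, and 3 and 0 in the interactions. Between Mef2cCKO and Mef2cf/f mice, no paired analysis was possible because their libraries share no numbers. Small groups of 3 or 4 libraries limit all comparisons of the 2 lines with loxP sites, with an interval as wide as -0.29 to 1.89 for Dusp4 in Mef2cCKO SD.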

Other observations

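Beyond the 10 genes, other genes of the pathway differed between the genotypes after SD. Of 107 other pathway genes tested in Mef2cCKO against Mef2cf/f SD, 14 were lower and 4 higher, where 5.99% of all genes were lower and 9.1% higher. This split depended on the scaling, with 10 lower and 4 higher after quantile normalization, 15 and 2 after the GC correction, and 8 and 9 on CPM as deposited, and over all genes the share of higher calls went from 43.0% to 77.5% across these settings. Without Mef2cCKO SD replicate 6, 14 of 108 were lower and 9 higher. Spred3, the third Spred gene, was lower by a log2 fold change of -0.51 (SE 0.10, adjusted p = 0.0156 by limma). Braf (-0.30), the ERK-activated kinase Rps6ka3 (-0.39), the JNK gene Mapk10 (-0.41) and the ligand Nrg1 (-0.69) were also lower, with adjusted p of 0.0101 to 0.0171. The naming rule picks list genes by their change in WT SD, so that these 4 genes and Spred3 changed there was given in advance. The 4 were lower after SD in WT mice (-0.52, -0.78, -0.57 and -0.96), whereas Spred3 was higher there (0.35). The rest of the 14 lower genes are not shown, and no comparison between the pairs of groups was tested.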
